A study of Danio rerio with 30 samples.

Results

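RNA from Tbx5b-deficient zebrafish embryos was compared with RNA from wildtype embryos at 21 hours post fertilization (hpf), the stage at which the heart is forming and the pectoral fin bud is being set up. Tbx5b-deficient embryos were \*AB strain embryos injected at the single-cell stage with a morpholino that blocks translation of *tbx5b*, and wildtype embryos were \*AB embryos for which no control injection is named. Each group had 3 libraries of 10 pooled embryos, taken after the eyes had been removed, and the table carries 1 value per gene for all 3 libraries together. Where named below, Tbx5a-deficient embryos, double-deficient embryos injected with both morpholinos, Tbx5b-deficient and wildtype embryos at 18 hpf, and a preliminary experiment with 1 library of 10 embryos per group and the eyes left on are given for comparison. The Tbx5a-deficient and double-deficient groups were set against the same wildtype value at 21 hpf, so that their differences from wildtype share it.

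Tbx5 is a T-box transcription factor best known for its part in heart and forelimb development. In zebrafish the gene is present as the duplicates *tbx5a* and *tbx5b*. Both are expressed in the heart field of the lateral plate mesoderm and in the dorsal part of the eye. *tbx5a* is also expressed in the part of that mesoderm that forms the pectoral fin, whereas reports of *tbx5b* in the fin differ. A translation-blocking morpholino binds the messenger RNA and keeps it from being read, without needing to alter its level, so the abundance of the *tbx5b* transcript is no check of the injection.

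Levels are given as FPKM, fragments normalised to transcript length and to the number of mapped fragments. Of 14648 loci in the table, 10667 were kept, being those with a usable value in both groups, at least 1 FPKM in either group and a locus of at least 300 bp, with microRNA loci left out. Of these, 10367 were at or above 1 FPKM in both groups, 149 passed only through the Tbx5b-deficient value and 151 only through the wildtype value. At the FPKM limit, *si:busm1-163l24.4* was just inside with 0.653 FPKM in Tbx5b-deficient and 1.0 FPKM in wildtype embryos, and *nt5dc1* was just outside with 0.999 FPKM in Tbx5b-deficient and 0.708 FPKM in wildtype embryos. At the length limit, *rpph1* was just inside with a locus of 306 bp and *wu:fa10h04* just outside with 287 bp.

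The difference between the groups was taken as the log2 ratio of FPKM plus 1, Tbx5b-deficient over wildtype, so that a positive value means more transcript in Tbx5b-deficient embryos. Since a single pooled value stands for each group, no test over libraries could be made, and the authors' lower and upper bounds of each value, whose confidence level is not given, served as the error. A gene was called when the groups differed at least 2-fold and their bounds did not overlap. In bulk RNA, fewer cells of a type and less RNA per cell cannot be told apart.

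Most genes had nearly the same level in both groups. Among the 10667 kept genes, 97.2% lay within 1.5-fold, the median log2 ratio was -0.04, and the middle 50 percent of genes ran from -0.20 to 0.10. By the call rule no gene was higher (0.0% of kept genes) and 1 was lower (0.00937%), namely *rpph1*, the RNA component of RNase P, which carries no poly(A) tail. No polyadenylated gene was called. The bounds were wide, with the upper bound lying a median of 44.1% above the value in Tbx5b-deficient and 45.7% above it in wildtype embryos among genes of at least 10 FPKM, so that a gene of that width needed a fold of about 2.60 for its bounds to separate.

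Without regard to the bounds, 3 genes were at least 2-fold higher (0.0281% of kept genes) and 27 at least 2-fold lower (0.253%), and 24 of the lower genes are polyadenylated by their RefSeq gene type or name, a class that takes in histone genes. In another reading of the bounds, the difference was set against the combined half-width of both groups, the root of the sum of the squared distances from value to upper bound. It exceeded that half-width in 3 higher genes (0.0281%), *dct* and *rx1* among them, and in 3 lower genes (0.0281%), *cyp11a1*, *si:ch211-117m20.5* and *rpph1*. The 1.5-fold limit was passed by 23 higher genes (0.216%) and 274 lower genes (2.57%).

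**Figure D1:**
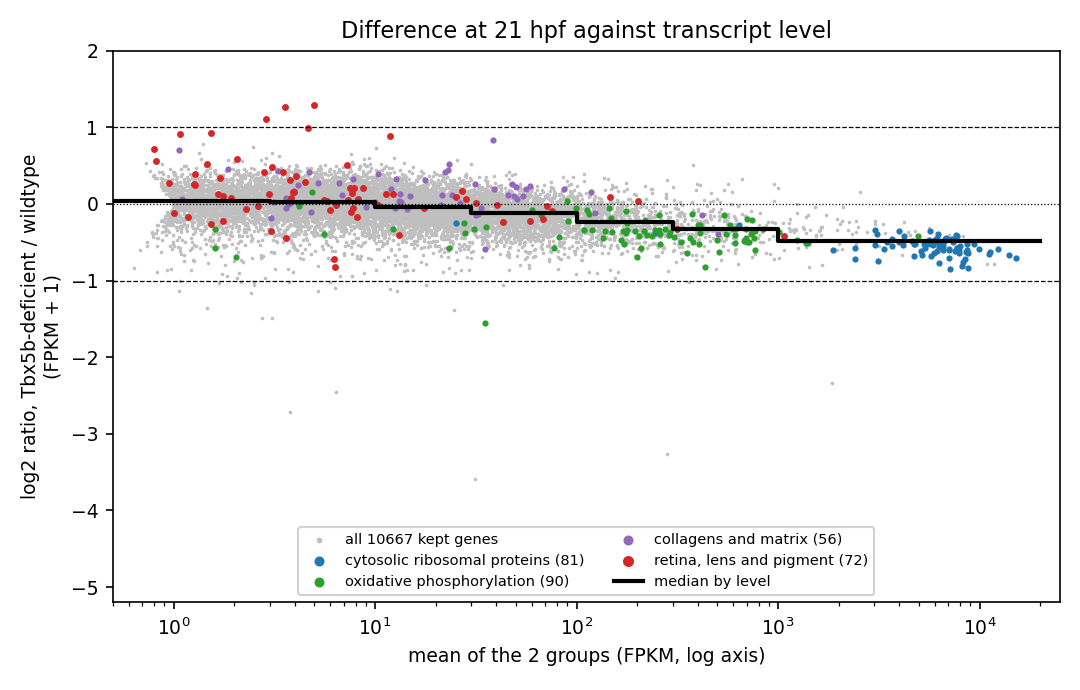
Log2 ratio of Tbx5b-deficient over wildtype embryos at 21 hpf (vertical axis, FPKM + 1) against the mean level of both groups (horizontal log axis, FPKM) for the 10667 kept genes, with 4 sets of genes in colour, a black line for the median in each band of level and dashed lines at a 2-fold difference. The few points above the upper dashed line are retinal and pigment genes of low level, and the black line descends to -0.49 at the abundant end, where the ribosomal protein genes lie.

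The targeted gene was barely detected. *tbx5b*, on chromosome 5 at 22648482 to 22657915, had 0.151 FPKM (bounds 0 to 0.344) in Tbx5b-deficient and 0.0833 FPKM (bounds 0 to 0.212) in wildtype embryos, so it fell short of the 1 FPKM limit. Its paralogue *tbx5a*, on chromosome 5 at 71474531 to 71504895, had 1.28 FPKM (bounds 0.276 to 2.29) in Tbx5b-deficient and 1.04 FPKM (bounds 0.233 to 1.84) in wildtype embryos. The bounds of the groups overlapped widely for both paralogues, and no difference in either was detectable at this depth. In the preliminary libraries *tbx5b* had 2.45 FPKM in Tbx5b-deficient and 1.39 FPKM in wildtype embryos, with the eyes on. Of the 11 genes taken to mark the tissues of the embryo, such as *mylpfa* for fast muscle, *elavl3* for neurons (17.1 FPKM in Tbx5b-deficient and 14.1 FPKM in wildtype embryos) and *he1a* for the hatching gland, the periderm keratin *krt4* was listed at 0 in every group and the others were detected.

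Genes of the retina and of melanin synthesis stood at the top of the ranking. *dct*, which encodes dopachrome tautomerase of the melanin pathway, had 7.45 FPKM (bounds 3.14 to 11.8) in Tbx5b-deficient and 2.46 FPKM (bounds 0.901 to 4.03) in wildtype embryos, a log2 ratio of 1.29. *rx1*, a retinal homeobox gene of the eye field, had 4.29 FPKM (bounds 1.86 to 6.73) in Tbx5b-deficient and 1.45 FPKM (bounds 0.498 to 2.41) in wildtype embryos, a log2 ratio of 1.11. In both genes the value of each group lay outside the bounds of the other, while the bounds themselves overlapped. *dct* lies on chromosome 9 at 53788137 to 53813085, and *rx1* on chromosome 22 at 4614881 to 4622399.

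Other genes of the same tissues lay just below the 2-fold limit. *tyrp1b*, a melanosomal enzyme related to tyrosinase, had 6.52 FPKM (bounds 2.79 to 10.3) in Tbx5b-deficient and 2.78 FPKM (bounds 0.994 to 4.57) in wildtype embryos, a log2 ratio of 0.99. *pmela*, whose product forms the fibrils of the melanosome, had 15.7 FPKM (bounds 7.37 to 24.0) in Tbx5b-deficient and 7.97 FPKM (bounds 4.06 to 11.9) in wildtype embryos, a log2 ratio of 0.89. *rx2*, a second retinal homeobox gene, had 1.24 FPKM in Tbx5b-deficient and 0.362 FPKM in wildtype embryos. The lens crystallins were divided: *crybb1* had 2.33 FPKM in Tbx5b-deficient and 0.754 FPKM in wildtype embryos, and *crygn2* had 4.31 FPKM in Tbx5b-deficient and 8.39 FPKM in wildtype embryos. Neither crystallin had bounds that separated.

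Over the lists of retinal field, lens and pigment cell genes, 72 of 134 members in the table were kept, and the others were not kept. Of the 72, 8 were at least 1.5-fold higher, or 11% against 0.216% of all kept genes, and 2 were at least 1.5-fold lower, both of them lens genes, against 2.57%. The limit on level shaped this count, since 3 of the 8, *rx2*, *crybb1* and *crybb1l2*, passed it only through the Tbx5b-deficient value. Among members at or above 1 FPKM in both groups, 5 of 65 were at least 1.5-fold higher, against 0.145% of all such genes. The 23 kept retinal field transcription factors had a median log2 ratio of 0.25, with 19 above 0 and 4 below 0, against a median of -0.04 over all kept genes. The 35 kept pigment cell genes had a median of 0.04, and the 14 kept lens crystallins a median of 0.03 with 7 above 0 and 7 below 0.

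The eyes had been removed in all 4 groups at 21 hpf, yet transcripts of eye genes remained. The summed level of the kept retinal field genes was 170 FPKM in Tbx5b-deficient, 168 FPKM in Tbx5a-deficient and 159 FPKM in double-deficient embryos, against 146 FPKM in wildtype embryos. The summed level of the kept lens genes was 48.5 FPKM in Tbx5b-deficient and 56.4 FPKM in wildtype embryos, and that of the kept pigment cell genes was 2092 FPKM in Tbx5b-deficient and 2463 FPKM in wildtype embryos. No defining eye marker was at 0, since *cryba1l1*, a lens crystallin, still had 3.99 FPKM in Tbx5b-deficient and 3.71 FPKM in wildtype embryos. The part of remaining eye tissue in the higher levels of *dct* and *rx1* was not tested.

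With the eyes on, the same genes had lower levels in Tbx5b-deficient embryos. In the preliminary libraries *dct* had 27.3 FPKM in the Tbx5b-deficient and 46.7 FPKM in the wildtype library, and *tyrp1b* 32.5 FPKM in the Tbx5b-deficient and 63.2 FPKM in the wildtype library. All 8 retinal, lens and pigment genes that were at least 1.5-fold higher in the triplicate experiment had a log2 ratio below 0 in the preliminary one. The kept lens crystallins had a preliminary median of -1.03, and their summed level was 244 FPKM in the Tbx5b-deficient and 520 FPKM in the wildtype library.

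**Figure D2:**
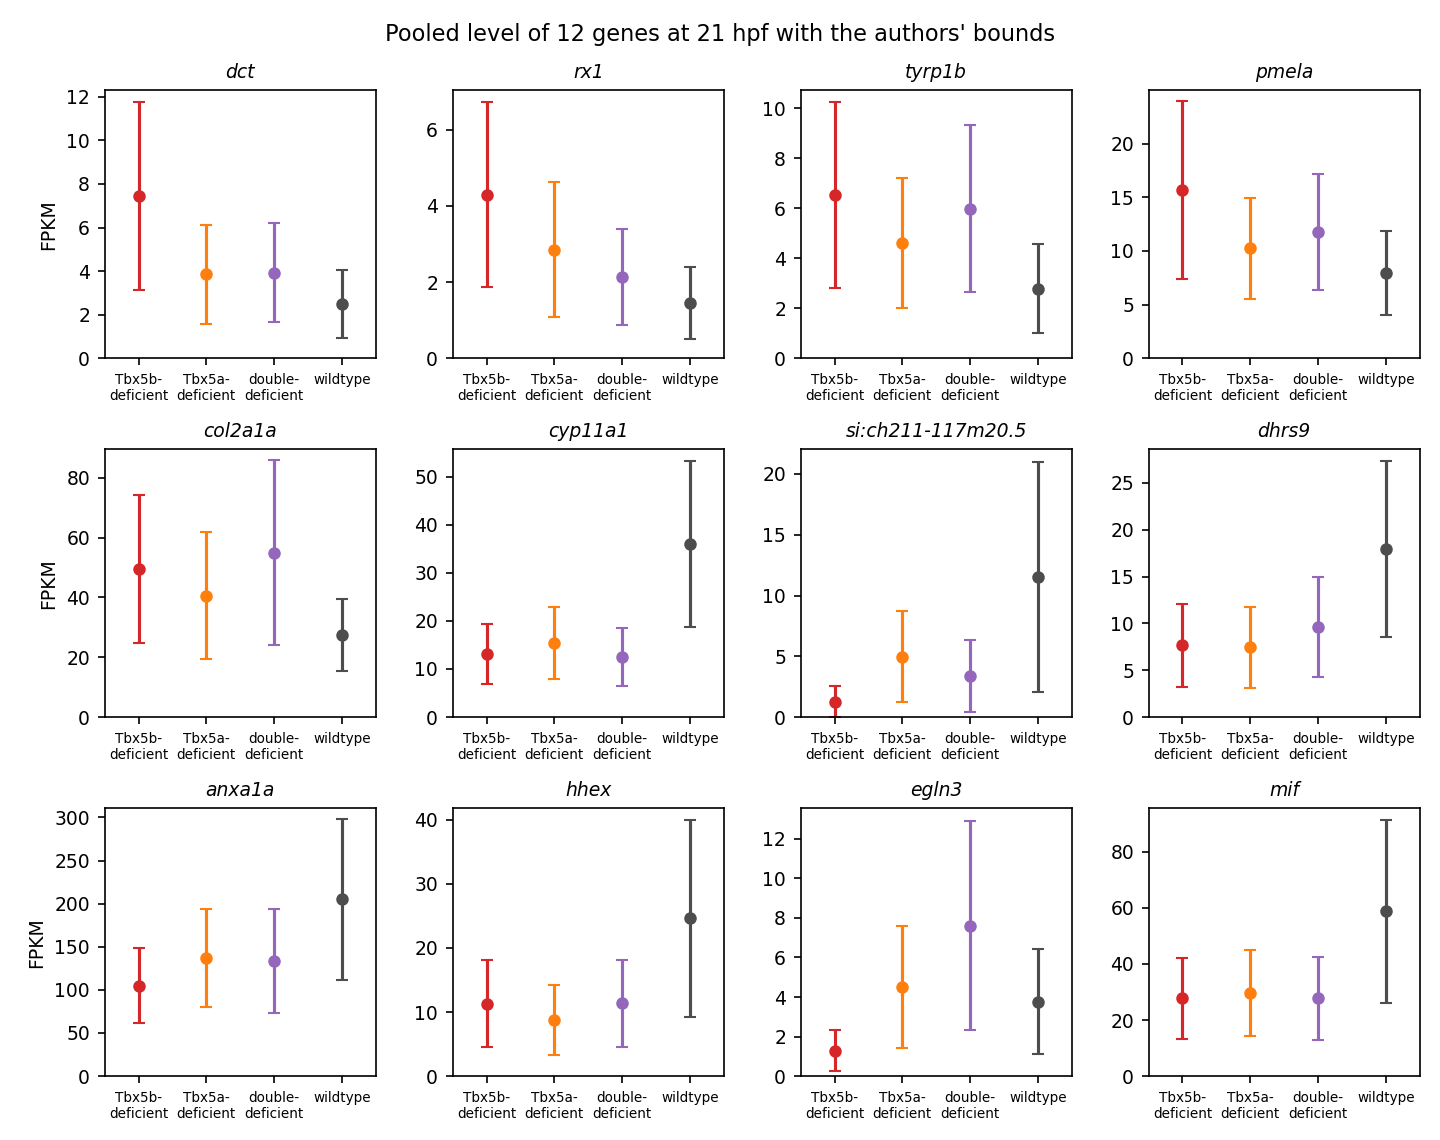
Pooled FPKM (vertical axis from 0) of 12 genes in Tbx5b-deficient, Tbx5a-deficient, double-deficient and wildtype embryos at 21 hpf, where a point is the authors' value over 3 libraries and a bar runs between their lower and upper bounds. The retinal and pigment genes were highest in Tbx5b-deficient embryos (*dct* 7.45 FPKM against 2.46 FPKM in wildtype), whereas *cyp11a1* had 13.2 FPKM in Tbx5b-deficient and 36.0 FPKM in wildtype embryos.

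The other polyadenylated genes that were at least 1.5-fold higher included matrix and signalling genes. *col2a1a*, which encodes type II collagen of notochord and cartilage, had 49.6 FPKM (bounds 24.9 to 74.3) in Tbx5b-deficient, 40.6 FPKM in Tbx5a-deficient and 54.9 FPKM in double-deficient embryos, against 27.4 FPKM (bounds 15.27 to 39.5) in wildtype embryos. Its log2 ratio of 0.83 had the same sign as in the preliminary libraries, where it was 1.11, with 311 FPKM in the Tbx5b-deficient and 144 FPKM in the wildtype library. *notch1a*, a Notch receptor, had 9.48 FPKM in Tbx5b-deficient and 5.65 FPKM in wildtype embryos, and *fzd5*, a Wnt receptor of the Frizzled family, had 4.24 FPKM in Tbx5b-deficient and 2.41 FPKM in wildtype embryos. *hsp70l*, a heat-inducible chaperone, had 2.32 FPKM (bounds 0.571 to 4.07) in Tbx5b-deficient and 0.756 FPKM (bounds 0.198 to 1.31) in wildtype embryos, and *fosl1a*, a member of the AP-1 family of transcription factors, had 1.87 FPKM in Tbx5b-deficient and 0.816 FPKM in wildtype embryos. The bounds of the groups overlapped in each of these genes. Of the 23 higher genes, 9 had a preliminary ratio above 0 and 14 below 0.

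Among the polyadenylated lower genes, *cyp11a1* had the difference largest relative to its bounds. It encodes the enzyme that cleaves the side chain of cholesterol, the first step of steroid hormone synthesis, and lies on chromosome 25 at 22222394 to 22237735. It had 13.2 FPKM (bounds 6.94 to 19.4) in Tbx5b-deficient, 15.4 FPKM in Tbx5a-deficient and 12.5 FPKM in double-deficient embryos, against 36.0 FPKM (bounds 18.7 to 53.3) in wildtype embryos. The log2 ratio was -1.38, and the bounds of Tbx5b-deficient and wildtype embryos overlapped only between 18.7 and 19.4 FPKM. At 18 hpf it had 31.5 FPKM in Tbx5b-deficient and 44.7 FPKM in wildtype embryos. In the preliminary libraries the order was turned round and the bounds did not overlap, with 24.0 FPKM (bounds 17.6 to 30.4) in the Tbx5b-deficient and 6.40 FPKM (bounds 4.49 to 8.30) in the wildtype library.

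*si:ch211-117m20.5*, which RefSeq lists as *tcnbb*, a gene of the transcobalamin family of vitamin B12 carriers, had 1.28 FPKM (bounds 0.0345 to 2.52) in Tbx5b-deficient and 11.5 FPKM (bounds 2.09 to 21.0) in wildtype embryos. Its log2 ratio was -2.46, and it was also on the lower side in the preliminary libraries, with 15.6 FPKM in the Tbx5b-deficient and 24.8 FPKM in the wildtype library. *dhrs9*, of the family of short-chain dehydrogenases that includes retinol dehydrogenases, had 7.65 FPKM (bounds 3.24 to 12.1) in Tbx5b-deficient and 17.9 FPKM (bounds 8.55 to 27.3) in wildtype embryos. *hhex*, a homeobox gene of the early endothelium, blood and liver bud, had 11.3 FPKM (bounds 4.56 to 18.1) in Tbx5b-deficient, 8.72 FPKM in Tbx5a-deficient and 11.3 FPKM in double-deficient embryos, against 24.6 FPKM (bounds 9.29 to 39.9) in wildtype embryos. Their bounds overlapped, and the preliminary log2 ratios were 0.24 for *dhrs9* and 0.20 for *hhex*.

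*egln3*, a prolyl hydroxylase that acts on hypoxia-inducible factor, was at least 2-fold lower than in wildtype and called lower against double-deficient embryos. It had 1.28 FPKM (bounds 0.261 to 2.31) in Tbx5b-deficient, 4.52 FPKM in Tbx5a-deficient and 7.62 FPKM (bounds 2.33 to 12.9) in double-deficient embryos, against 3.75 FPKM (bounds 1.09 to 6.41) in wildtype embryos. At 18 hpf the order was the other way, with 6.49 FPKM (bounds 2.34 to 10.6) in Tbx5b-deficient and 1.80 FPKM (bounds 0.544 to 3.06) in wildtype embryos. *p4ha1b*, which encodes a subunit of the prolyl hydroxylase of collagen, also lay on opposite sides at the stages compared. It had 115 FPKM in Tbx5b-deficient and 55.5 FPKM in wildtype embryos at 18 hpf. At 21 hpf it had 28.1 FPKM in Tbx5b-deficient and 42.6 FPKM in wildtype embryos. In the preliminary libraries at 21 hpf both genes were higher in Tbx5b-deficient embryos, with bounds that did not overlap. There *egln3* had 7.33 FPKM in the Tbx5b-deficient and 3.46 FPKM in the wildtype library. *p4ha1b* had 91.7 FPKM in the Tbx5b-deficient and 46.6 FPKM in the wildtype library.

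The remaining lower genes were of several kinds. *mif*, which encodes a cytokine, had 27.8 FPKM in Tbx5b-deficient and 58.8 FPKM in wildtype embryos, *ankrd9* had 7.14 FPKM in Tbx5b-deficient and 16.5 FPKM in wildtype embryos, and *zgc:153713* had 239 FPKM in Tbx5b-deficient and 485 FPKM in wildtype embryos. *anxa1a*, which encodes an annexin, fell just short of the 2-fold limit with 105 FPKM (bounds 61.1 to 149) in Tbx5b-deficient and 205 FPKM (bounds 111 to 298) in wildtype embryos. *zgc:153409*, a locus of 369 bp, had the most negative ratio of the genes classed as polyadenylated, -2.71. It had 0.260 FPKM in Tbx5b-deficient and 7.26 FPKM in wildtype embryos, and a preliminary ratio of 2.03. *cox6b1*, with 17.3 FPKM (bounds 0 to 64.6) in Tbx5b-deficient and 52.6 FPKM (bounds 0 to 154) in wildtype embryos, is uncertain because its listed locus of 1498818 bp overlaps 13 others. *LOC100499487* was listed at 0 in Tbx5b-deficient, Tbx5a-deficient and double-deficient embryos and in both preliminary libraries. Wildtype embryos of the triplicate experiment had 1.01 FPKM (bounds 0 to 9.74). This gene is uncertain, since its listed locus overlaps another.

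The 24 genes classed as polyadenylated that were at least 2-fold lower, histone loci among them, mostly had short loci and were weakly expressed. The median locus was 2379 bp, against 14147 bp over all kept genes, and 15 of the 24 had less than 10 FPKM in wildtype embryos. *LOC100499487*, *fabp7b*, *zgc:165555*, *zgc:153409*, *zgc:163040* and *zgc:154164* passed the limit on level only through the wildtype value. Against the same wildtype value, 23 of the 24 were also below 0 in Tbx5a-deficient embryos, against 52% of all kept genes. In double-deficient embryos 23 were below 0, against 54.4% of all kept genes. The 24 were picked by their ratio to that wildtype value, so these shares cannot show whether the lower side was particular to Tbx5b-deficient embryos. In the preliminary libraries 17 of the 24 had a ratio above 0 and 6 below 0. The 271 genes classed as polyadenylated and at least 1.5-fold lower were nearly evenly divided there, with 130 below 0 and 140 above 0.

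**Figure D3:**
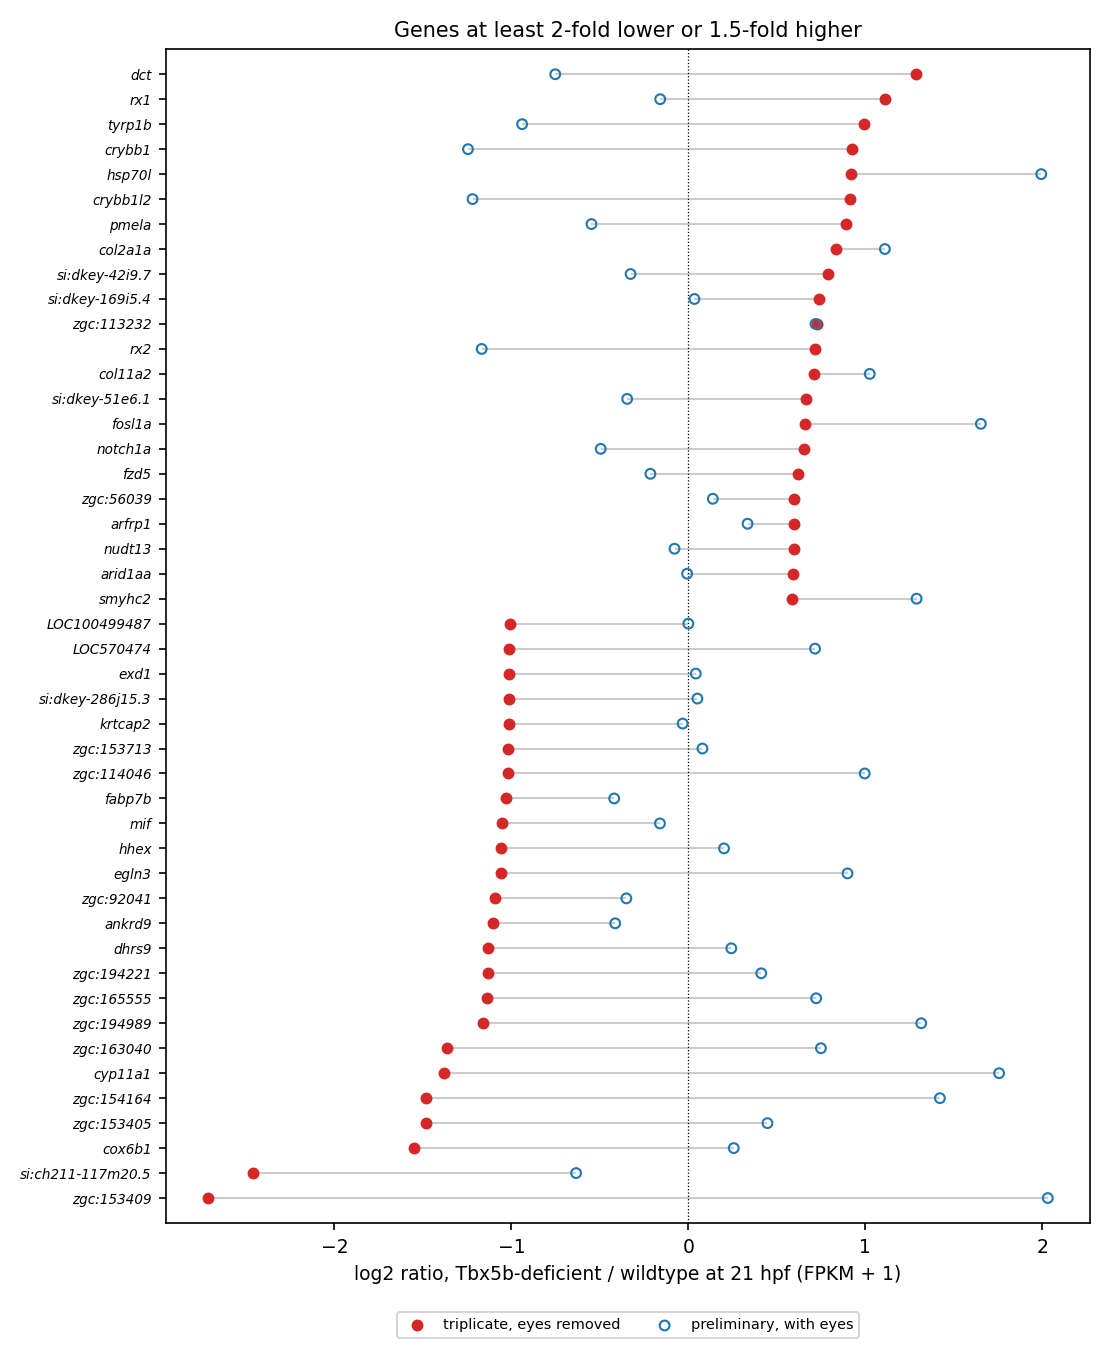
Log2 ratio of Tbx5b-deficient over wildtype at 21 hpf (horizontal axis, FPKM + 1) for the genes classed as polyadenylated that were at least 1.5-fold higher (upper rows, 1 of them not shown) or at least 2-fold lower (lower rows) in the triplicate experiment, with filled points for the triplicate and open points for the preliminary experiment. The points of *col2a1a* (0.83 and 1.11) lie on the same side of 0, while those of *dct* (1.29 and -0.75) and *cyp11a1* (-1.38 and 1.76) lie on opposite sides.

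Of the 24 lower loci, 4 lay within 109464 bp of each other on chromosome 25, between 34539566 and 34649029, in a stretch that holds histone genes, and this was the only group of 2 or more lower loci within 200 kb of each other. The stretch was chosen after its values were seen. With 10 kb added on either side it held 10 kept loci, and 2 of them were above 0. At least 1.5-fold lower were 8 of the 10, against 2.57% of all kept genes. These 8 include the 4 loci that set the stretch, and *ano9a*, which lies beyond its end at 34650689 to 34651914. The limit on level shaped this count too. *zgc:165555* and *ano9a*, with 0.294 FPKM and 0.385 FPKM in Tbx5b-deficient embryos, passed it only through the wildtype value. *hist2h3c*, a histone H3 gene, had 9.93 FPKM in Tbx5b-deficient and 18.8 FPKM in wildtype embryos, *hist1h4l*, a histone H4 gene, had 3.08 FPKM in Tbx5b-deficient and 5.71 FPKM in wildtype embryos, and *zgc:153405* had 1.14 FPKM in Tbx5b-deficient and 5.0 FPKM in wildtype embryos. Most histone messenger RNAs end in a stem-loop and carry no poly(A) tail, so that an oligo-dT library captures them poorly. In the preliminary libraries 9 of the 10 loci had a ratio above 0 and 1 below 0. Over the whole table, the 18 kept histone loci had a median log2 ratio of -0.29, with 17 below 0. Their median level was 128 FPKM. Of all kept genes from 100 to 300 FPKM, 562 of 638 were below 0, with a median of -0.23. The part of level was not tested. *zgc:165555* and *zgc:163040* were kept only through the wildtype value. In the preliminary experiment 11 of the 18 were above 0, with a median of 0.11.

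RNAs without a poly(A) tail, *rpph1* and *rn7sk*, had the most negative log2 ratios of the kept loci, -3.59 and -3.26. *rpph1*, on chromosome 2 at 37844277 to 37844582, had 3.97 FPKM (bounds 0.0831 to 7.85) in Tbx5b-deficient, 3.91 FPKM in Tbx5a-deficient and 4.92 FPKM in double-deficient embryos, against 58.9 FPKM (bounds 11.8 to 106) in wildtype embryos. *rn7sk*, the 7SK small nuclear RNA, had 52.6 FPKM in Tbx5b-deficient and 512 FPKM in wildtype embryos, and is uncertain, since its bounds ran from 0 to 326 FPKM in Tbx5b-deficient and from 0 to 1939 FPKM in wildtype embryos and its listed locus of 675749 bp overlaps 16 others. *zgc:158463*, a ribosomal RNA, had 610 FPKM in Tbx5b-deficient and 3093 FPKM in wildtype embryos. All 3 were on the other side in the preliminary libraries, where *rpph1* had 45.9 FPKM in the Tbx5b-deficient and 2.32 FPKM in the wildtype library. The part of RNA without a poly(A) tail in the libraries in the lower levels at short loci was not tested.

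The broadest difference was a small one in abundant housekeeping genes. All 81 kept genes for cytosolic ribosomal proteins had a log2 ratio below 0, with a median of -0.54, and 32 of them were at least 1.5-fold lower, against 2.57% of all kept genes. *rps13*, of the small subunit, had 5108 FPKM (bounds 2298 to 7919) in Tbx5b-deficient and 9217 FPKM (bounds 502 to 17933) in wildtype embryos, and *rps29*, also of the small subunit, had 11500 FPKM in Tbx5b-deficient and 18744 FPKM in wildtype embryos. *rpl27a*, of the large subunit, had 6267 FPKM in Tbx5b-deficient and 11230 FPKM in wildtype embryos. The bounds of *rps13* in Tbx5b-deficient embryos lay wholly within those in wildtype embryos, and none of the 81 genes reached a 2-fold difference. Against the same wildtype value, the median of the list was -0.77 in Tbx5a-deficient and -0.59 in double-deficient embryos. Set directly against Tbx5a-deficient embryos, Tbx5b-deficient embryos had the higher level in 80 of the 81 genes, with a median log2 ratio of 0.22. Over all genes kept in that comparison the median was -0.0003, with 50% below 0. The lean was shared by oxidative phosphorylation genes (82 of 90 above 0, median 0.21) and proteasome genes (43 of 47, median 0.20). It was also seen by level. Without ribosomal proteins, genes of at least 1000 FPKM had a median over wildtype of -0.37 in Tbx5b-deficient and -0.59 in Tbx5a-deficient embryos. From 100 to 300 FPKM it was -0.23 in Tbx5b-deficient and -0.32 in Tbx5a-deficient embryos. The part of level in this lean was not tested. Against wildtype, the preliminary median of the ribosomal protein genes was -0.29.

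Genes of the mitochondrial respiratory chain and of the mitochondrial ribosome lay on the same side. Of 90 kept genes of the oxidative phosphorylation list, 88 were below 0, against 57.5% of all kept genes. Among all kept genes from 100 to 300 FPKM, 562 of 638 were below 0. The oxidative phosphorylation list had a median of -0.37, and 7 of its genes were at least 1.5-fold lower, against 2.57% of all kept genes. All 68 kept mitochondrial ribosomal protein genes were below 0, with a median of -0.31, whereas 51 of them were above 0 in the preliminary experiment, with a median of 0.10. *ndufa6*, a subunit of complex I, had 313 FPKM in Tbx5b-deficient and 553 FPKM in wildtype embryos. *mrpl20*, of the large mitochondrial subunit, had 87.9 FPKM in Tbx5b-deficient and 164 FPKM in wildtype embryos. The list of proteasome subunits and related genes such as *psmg1* and *nfe2l1b* had a median of -0.23 with 42 of 47 below 0. Its preliminary median was -0.00. Translation factors had a median of -0.22 with 71 of 86 below 0, and a preliminary median of 0.08. The preliminary median of the oxidative phosphorylation list was -0.09. The ribosome biogenesis genes had a median of -0.25 with 40 of 44 below 0, against a preliminary median of 0.34.

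These lists hold abundant transcripts, and over all kept genes the ratio varied with level and with the length of the locus. The median log2 ratio was 0.04 for the 1905 genes below 3 FPKM and -0.12 for the 1813 genes from 30 to 100 FPKM. It was -0.23 for the 638 genes from 100 to 300 FPKM. From 300 to 1000 FPKM it was -0.33, with 231 of 254 genes below 0. For the 160 genes of at least 1000 FPKM it was -0.49, with 159 below 0. The median member level was 163 FPKM in the proteasome and 166 FPKM in the translation factor list. Their medians of -0.23 and -0.22 lay close to that of all kept genes from 100 to 300 FPKM. Without the ribosomal protein genes, the 82 genes of at least 1000 FPKM had a median of -0.37. Within the band from 3 to 30 FPKM the median was -0.13 for loci under 5000 bp and 0.06 for loci of at least 20000 bp. At or above 1000 FPKM the median was -0.28 in the preliminary experiment and -0.46 at 18 hpf. These values come from other libraries, those at 18 hpf from the same triplicate experiment, and the genes were banded by their triplicate level at 21 hpf. The summed FPKM of the table was 968416 in Tbx5b-deficient and 1293230 in wildtype embryos at 21 hpf. The part of level and locus length in the lower ratios of the ribosomal, respiratory chain, proteasome and translation factor lists was not tested.

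**Figure D4:**
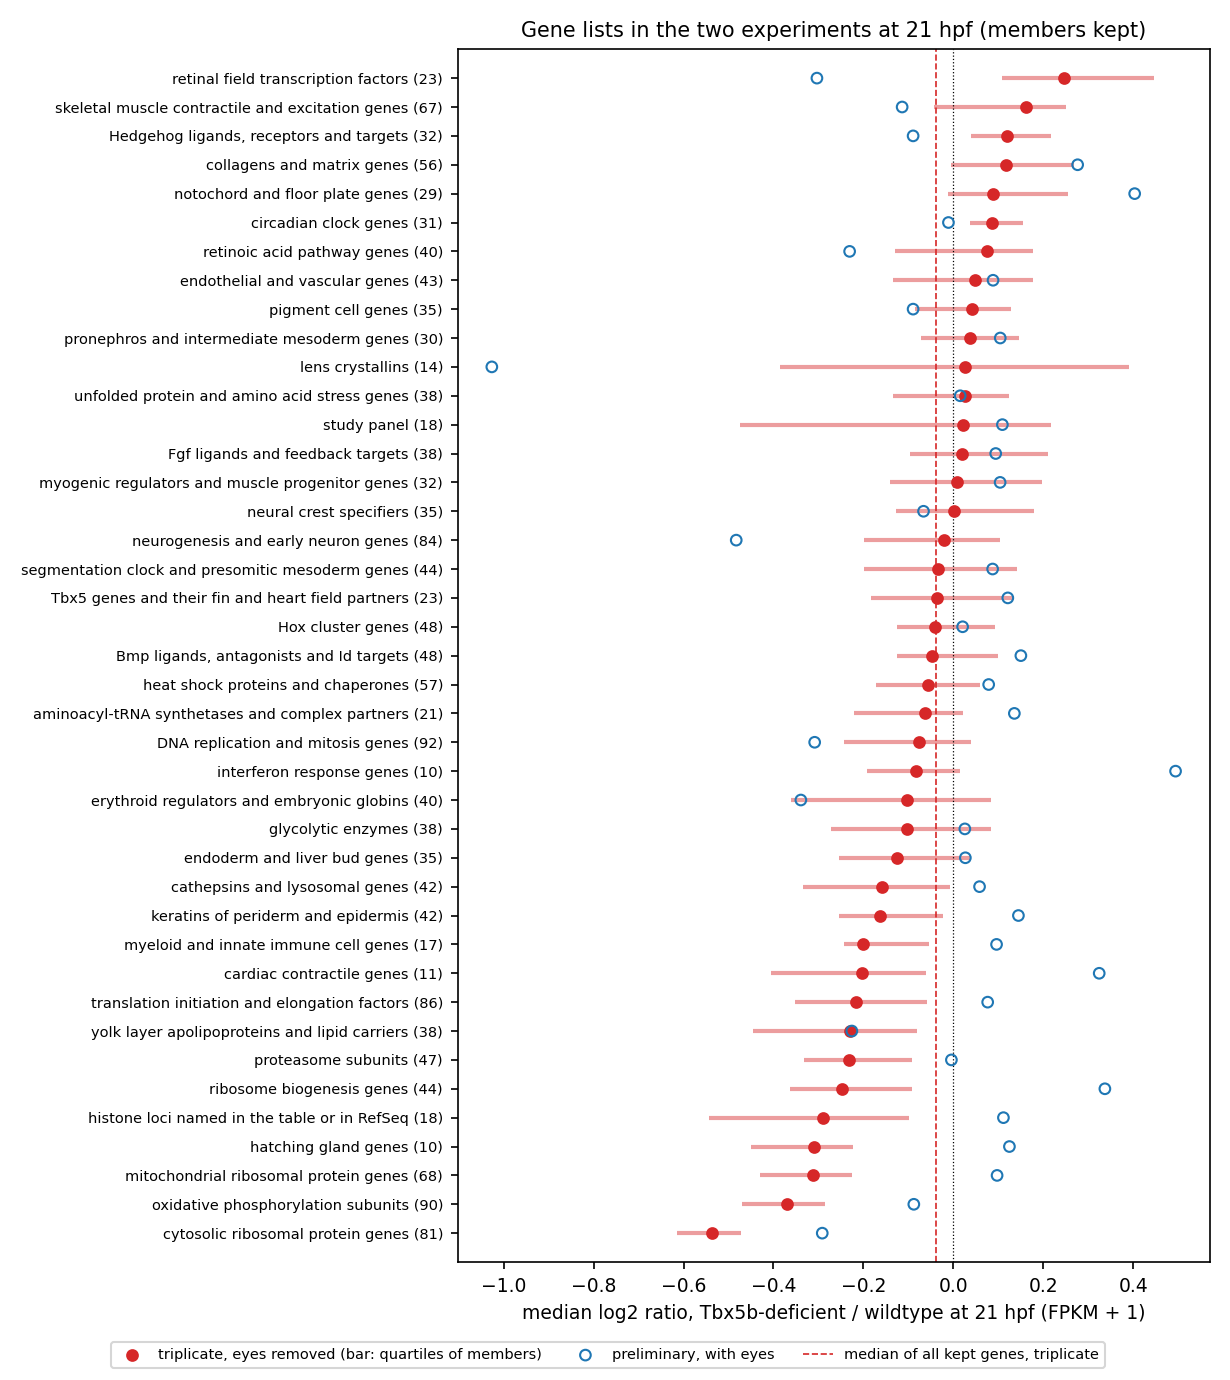
Median log2 ratio of Tbx5b-deficient over wildtype at 21 hpf (horizontal axis, FPKM + 1) for 41 gene lists, with the number of kept members in brackets, filled points with bars for the quartiles of the members in the triplicate experiment, open points for the preliminary experiment and a dashed line at the triplicate median of all kept genes. Cytosolic ribosomal proteins stood lowest at -0.54, the retinal field highest at 0.25, and lens crystallins lay far from their triplicate value in the preliminary experiment, at -1.03.

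Genes of the heart and fin fields, where the Tbx5 paralogues act, had ratios spread around that of all kept genes. The 23 kept members, *tbx5a* among them, had a median log2 ratio of -0.04, equal to that of all kept genes, with 9 above 0, 14 below 0 and none at 1.5-fold. *gata6*, a zinc-finger factor of cardiac and endodermal precursors, had 20.7 FPKM (bounds 11.5 to 29.9) in Tbx5b-deficient and 31.5 FPKM (bounds 17.5 to 45.4) in wildtype embryos, the lowest ratio of the list at -0.58. *hand2*, a bHLH factor of heart and fin, had 14.0 FPKM in Tbx5b-deficient and 16.3 FPKM in wildtype embryos. *mef2ca*, a MADS-box factor of muscle and heart, had 12.7 FPKM in Tbx5b-deficient and 9.08 FPKM in wildtype embryos, the highest ratio of the list at 0.44. The 11 kept cardiac contractile genes had a median of -0.20, and a preliminary median of 0.32, with *myl7*, the cardiac myosin light chain, at 51.6 FPKM in Tbx5b-deficient and 59.6 FPKM in wildtype embryos.

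Signalling pathways that pattern the mesoderm had medians close to 0 in the triplicate experiment. For the Fgf pathway, which Tbx5 feeds in the fin bud, the 38 kept genes had a median of 0.02 and a preliminary median of 0.09. *dusp6*, a feedback inhibitor of Fgf signalling, had 56.6 FPKM in Tbx5b-deficient and 56.9 FPKM in wildtype embryos, and *etv4*, an ETS factor downstream of Fgf, had 37.5 FPKM in Tbx5b-deficient and 45.2 FPKM in wildtype embryos. The 48 kept Bmp genes had a median of -0.05, and a preliminary median of 0.15 with 35 of 48 above 0. *ved*, a ventral homeobox gene, had 13.5 FPKM in Tbx5b-deficient and 20.49 FPKM in wildtype embryos, but a preliminary ratio of 0.60. The 40 kept retinoic acid genes had a median of 0.07, and a preliminary median of -0.23 with 26 of 40 below 0. *rbp4*, the plasma carrier of retinol, had 477 FPKM in Tbx5b-deficient and 746 FPKM in wildtype embryos, with a preliminary ratio of -0.95.

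Hedgehog genes leaned to the higher side by a small amount. Of 32 kept members 26 were above 0, with a median of 0.12 and none at 1.5-fold, and the preliminary median was -0.09. Of all 10667 kept genes, 4529 were above 0. Against the same wildtype value, the Hedgehog median was 0.16 in Tbx5a-deficient embryos, with 30 of 32 above 0. In double-deficient embryos it was 0.15, with 25 of 32 above 0. *scube2*, which aids release of the ligand, had 12.2 FPKM in Tbx5b-deficient and 8.77 FPKM in wildtype embryos. Collagen and matrix genes had a median of 0.12 with 41 of 56 above 0, and the preliminary median was 0.28. Against the same wildtype value, their median was 0.18 in Tbx5a-deficient embryos, with 46 of 56 above 0. In double-deficient embryos it was 0.35, with 53 of 56 above 0. *col8a1a*, a short-chain collagen of the notochord, had 27.6 FPKM in Tbx5b-deficient and 18.9 FPKM in wildtype embryos, and 150 FPKM in the Tbx5b-deficient and 87.6 FPKM in the wildtype library of the preliminary experiment. In the other direction *mia*, a secreted protein of cartilage, had 112 FPKM in Tbx5b-deficient and 208 FPKM in wildtype embryos.

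Skeletal muscle genes had a median of 0.16 with 47 of 67 above 0, and a summed level of 13181 FPKM in Tbx5b-deficient and 11837 FPKM in wildtype embryos. *mylpfa*, the fast myosin light chain, had 1034 FPKM in Tbx5b-deficient and 866 FPKM in wildtype embryos, and *atp2a1*, the calcium pump of the sarcoplasmic reticulum, had 444 FPKM (bounds 193 to 695) in Tbx5b-deficient and 311 FPKM (bounds 111 to 512) in wildtype embryos. *pvalb4*, a calcium-binding parvalbumin, went the other way with 12.2 FPKM in Tbx5b-deficient and 21.4 FPKM in wildtype embryos. The preliminary median of the list was -0.11. Against the same wildtype value at 21 hpf, its median was 0.11 in Tbx5a-deficient embryos, with 46 of 67 above 0. In double-deficient embryos it was 0.38, with 62 of 66 above 0.

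Blood and vessel genes had medians near 0 in the triplicate experiment. The 40 kept erythroid genes had a median of -0.10 and the 43 kept endothelial genes a median of 0.05. In the preliminary experiment the erythroid median was -0.34, with 33 of 39 genes below 0, and the endothelial median was 0.09. *hbbe1.1*, an embryonic beta globin, had 392 FPKM (bounds 226 to 558) in Tbx5b-deficient and 652 FPKM (bounds 300 to 1005) in wildtype embryos, with a log2 ratio of -0.73 and a preliminary ratio of -0.77. *etv2*, the ETS factor that starts the endothelial lineage, had 30.4 FPKM in Tbx5b-deficient and 40.2 FPKM in wildtype embryos, whereas *kdrl*, a Vegf receptor of endothelium, had 2.61 FPKM in Tbx5b-deficient and 2.19 FPKM in wildtype embryos. The bounds overlapped in the globin.

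Surface and yolk genes were on the lower side, as were most genes of their level. The median member level was 36.1 FPKM in the periderm and epidermis, 82.8 FPKM in the yolk layer and 145 FPKM in the hatching gland list. Of all kept genes, 1352 of 1813 from 30 to 100 FPKM were below 0, with a median of -0.12. From 100 to 300 FPKM 562 of 638 were below 0, with a median of -0.23. The part of level in the ratios of these lists was not tested. The 42 kept genes of the periderm and epidermis list, which holds keratins and others such as *anxa1a*, had a median of -0.16 with 34 below 0. *krt18* had 466 FPKM in Tbx5b-deficient and 801 FPKM in wildtype embryos. In the preliminary experiment 27 of these 42 genes were above 0, with a median of 0.14, and *krt18* had a ratio of 0.38. The 38 kept genes of the yolk layer, which exports lipid to the embryo, had a median of -0.23 with 30 below 0 and the same preliminary median of -0.23. *afp4*, named for its likeness to an antifreeze protein, had 8644 FPKM in Tbx5b-deficient and 14867 FPKM in wildtype embryos. The 10 kept hatching gland genes had a median of -0.31, against a preliminary median of 0.12. Neural genes, 84 of them kept, had a median of -0.02 in the triplicate and -0.48 in the preliminary experiment, and replication and mitosis genes, 92 kept, -0.08 in the triplicate and -0.31 in the preliminary experiment.

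The preliminary libraries gave more calls than the triplicate values, with 84 of 11681 genes higher (0.719%) and 110 lower (0.942%), from 1 library per group and narrower bounds, whose median upper bound lay 26.6% above the value. The interferon response gene *isg15* had 10.3 FPKM in the Tbx5b-deficient and 0.424 FPKM in the wildtype library of that experiment. In the triplicate experiment *isg15* had 2.94 FPKM in Tbx5b-deficient and 2.48 FPKM in wildtype embryos, and the 10 kept interferon response genes had a median log2 ratio of -0.08, against a preliminary median of 0.49.

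The genes that the study followed up were chosen on these samples, so their directions are no independent evidence. Of 18 kept members 9 were above 0 and 9 below 0, with a median of 0.02, 1 at least 1.5-fold higher, *tyrp1b*, and 3 at least 1.5-fold lower, *cox6b1*, *hhex* and *aimp1*, against 0.216% higher and 2.57% lower among all kept genes. *aimp1*, a scaffold protein of the complex of aminoacyl-tRNA synthetases, had 132 FPKM (bounds 76.2 to 187) in Tbx5b-deficient and 206 FPKM (bounds 94.5 to 317) in wildtype embryos. *ctsc*, a lysosomal cathepsin, had 206 FPKM in Tbx5b-deficient and 304 FPKM in wildtype embryos, against a preliminary ratio of 1.27. *krt91*, a keratin, had 249 FPKM in Tbx5b-deficient, 92.7 FPKM in Tbx5a-deficient and 142 FPKM in double-deficient embryos, against 225 FPKM in wildtype embryos.

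Set directly against the other injected groups at 21 hpf, Tbx5b-deficient embryos differed in few genes. Against Tbx5a-deficient embryos no gene was called higher (0.0%) and 1 lower (0.00938%), *ggact.3*, at 0.0609 FPKM in Tbx5b-deficient and 1.62 FPKM in Tbx5a-deficient embryos. The difference exceeded the combined half-width in 2 higher genes (0.0188%), *krt91* among them, and in 5 lower genes (0.0469%), among them *hsp90aa1.2*, an Hsp90 chaperone, which had 63.8 FPKM in Tbx5b-deficient and 196 FPKM in Tbx5a-deficient embryos. Against double-deficient embryos no gene was called higher (0.0%) and 1 lower (0.0093%), *egln3*, while 1 higher gene (0.0093%) and 10 lower genes (0.093%) exceeded the combined half-width. Skeletal muscle genes had a median log2 ratio of -0.25 in Tbx5b-deficient over double-deficient embryos with 54 of 67 below 0, against 50.7% of all kept genes. *tnnt3b*, a fast troponin T, had 7.13 FPKM in Tbx5b-deficient and 18.2 FPKM in double-deficient embryos, and *pvalb1* had 6.83 FPKM in Tbx5b-deficient and 23.7 FPKM in double-deficient embryos. At 18 hpf, Tbx5b-deficient against wildtype gave 1 higher call (0.00946%), *cmn* at 62.4 FPKM in Tbx5b-deficient and 22.7 FPKM in wildtype embryos, and no lower call (0.0%).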

How the data were processed

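The authors made single-end libraries with oligo-dT selection, aligned the reads with TopHat2 2.1.0 and Bowtie2 2.2.5.0 (versions from the submitters' processing notes) and deposited FPKM values with lower and upper bounds from Cuffdiff, 1 per gene and group, with the 3 libraries of a group combined. The study's methods name Zv9 and the processing notes GRCz10. The table names no build, and coordinates are those of the table. Read totals per library were not used here, so depth enters only through the authors' bounds, which cover the spread their software modelled.

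Of the FPKM values, 20 of 30 libraries were used, in 6 groups of the triplicate experiment and 2 preliminary libraries. Log2 ratios were computed with a pseudocount of 1 FPKM, which understates the change of low genes, in Python 3.11.15 with numpy 2.4.6, pandas 2.3.3 and matplotlib 3.10.9. A few genes and 1 list are not reported here. Nothing says whether libraries of a group came from separate clutches. Of the kept loci, 10594 matched a RefSeq gene (assembly GRCz12tu, names only) and 564 overlapped another locus. Named were the Tbx5 genes, called genes, up to 15 polyadenylated genes a direction beyond 2-fold, the genes the study followed up, and up to 3 genes of a list at either end and by level. A few further genes were named after their values were seen, among them *anxa1a*, *notch1a*, *fzd5*, *p4ha1b* and *isg15*. The members and the 39 lists, with 3 lists added later (histones, mitochondrial ribosomal proteins and ribosome biogenesis), were chosen with earlier results of these data known.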

Additional observations from a re-analysis of the deposited data

Results flagged for a closer look

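The effect of Tbx5b deficiency differed in sign between the triplicate experiment, without eyes, and the preliminary experiment, with eyes, in 2 flagged genes. A flagged gene differed at least 2-fold in both experiments. Its difference exceeded the combined half-width in the triplicate experiment, and its bounds did not overlap in the preliminary experiment. *dct* also differed in sign and exceeded the combined half-width in both experiments, but its preliminary log2 ratio of -0.75 was below 2-fold. *rpph1* had a log2 ratio of -3.59 in the triplicate and 3.82 in the preliminary experiment. *cyp11a1* had a log2 ratio of -1.38 in the triplicate and 1.76 in the preliminary experiment. The difference between the experiments was not tested, since each group has 1 pooled value or 1 library.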

How the results depend on the processing

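No paired analysis was possible because the deposited values are pooled over the 3 libraries of a group, and for the same reason no replicate could be left out. The count of 1 called gene became 2 with no limit on locus length, 30 without the bounds, 6 with the combined half-width in place of the bounds, and 4 (2 higher, 2 lower) with microRNA loci kept, an alternative chosen after seeing the data. It was also 1 under the other pseudocounts, level limits, scalings and the 1.5-fold limit. The 30 genes beyond 2-fold became 83 with a pseudocount of 0.1, 8 with a pseudocount of 5, 12 at a minimum of 10 FPKM and 297 at 1.5-fold. The 6 genes beyond the combined half-width became 3 at a minimum of 10 FPKM, all of them lower. In the preliminary experiment the 194 called genes became 311 with a pseudocount of 0.1, 88 with a pseudocount of 5, 127 at a minimum of 10 FPKM and 479 at 1.5-fold. In the preliminary experiment, over the members kept there, the list median of the lens crystallins was -1.14 and that of the ribosome biogenesis genes 0.33, and *rpph1* had a ratio of 3.82. Between the experiments the ratio of 279 named genes moved by less than the combined upper half-width of their triplicate bounds on the log2 scale. That of 66 moved by more, without counting *rpph1*, the only called gene. The bounds of the preliminary libraries did not enter this limit. Upper-quartile scaling shifted every log2 ratio by 0.09 upward, and 9 of 42 list medians, all between -0.09 and 0, then changed sign: neurogenesis, segmentation, heart and fin field, Hox, Bmp, heat shock, aminoacyl-tRNA synthetase, replication and interferon genes. The causes were not tested. Wide bounds limit what could be called to differences of about 2.60-fold at 10 FPKM or more. The T-box motif was not searched, since no promoter sequence was used here.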

Other observations

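Circadian clock genes, which no comparison above covers, had a median log2 ratio of 0.09 in Tbx5b-deficient over wildtype embryos at 21 hpf, with 24 of 31 kept members above 0. *per3*, a period gene of the clock, had 4.47 FPKM in Tbx5b-deficient, 2.16 FPKM in Tbx5a-deficient and 1.84 FPKM in double-deficient embryos, against 4.96 FPKM in wildtype embryos. At 18 hpf the same gene had 0.892 FPKM in Tbx5b-deficient and 2.74 FPKM in wildtype embryos.

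The following stress genes lay near 0 as lists, with a median of 0.03 for the 38 kept genes of the unfolded protein and amino acid response and -0.06 for the 57 kept heat shock proteins and chaperones. *atf4a*, a transcription factor of the amino acid response, had 682 FPKM in Tbx5b-deficient and 1064 FPKM in wildtype embryos of the triplicate experiment, and 539 FPKM in the Tbx5b-deficient and 271 FPKM in the wildtype library of the preliminary experiment. The list of glycolytic enzymes, which also holds *egln3*, had a median of -0.10, and cathepsins and lysosomal genes had a median of -0.16.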
